A study of Mus musculus with 16 samples.

Results

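The genes described here are 10 genes that mark GABAergic interneurons of the mouse striatum. They were chosen by name, as Pvalb, Pthlh, Sst, Npy, Nos1, Th, Vip, Calb2, Lhx6 and Htr3a, and all 10 were found among the 20730 genes listed in each library. RNA was measured in whole striata of 8 adult C57BL/6N mice, which all carried a RiboTag virus that gives astrocytes the ribosomal protein Rpl22 with a hemagglutinin tag. Besides it, 4 mice received a second virus with hPMCA2w/b, a human pump that moves calcium out of cells and thereby lowers their calcium signals (PMCA mice), and 4 mice received a virus with a control protein in its place (control mice). Each mouse gave 2 libraries, 1 of RNA precipitated with the tagged ribosomes (IP) and 1 of the cleared lysate (input), so the 16 libraries form 4 groups of 4: PMCA IP, control IP, PMCA input and control input. The labels used here give neither the promoters of the viruses nor the animals' exact age, and state which cells express the 2 viral proteins only as astrocytes. Libraries held 46.8 to 58.5 M reads for IP and 32.3 to 40.9 M reads for input, and the 10 genes had between 24 and 19679 reads in a library. Levels are log2 CPM, which is reads scaled to the size of the library on a log2 scale, and no gene length was at hand, so a level is compared between libraries and never between genes.

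Striatal interneurons make up a small share of striatal neurons and control the projection neurons around them through GABA. Fast-spiking cells carry parvalbumin (Pvalb) and the parathyroid hormone-related peptide (Pthlh). Another class, which fires at low threshold, makes somatostatin (Sst), neuropeptide Y (Npy) and nitric oxide through the neuronal nitric oxide synthase (Nos1), and further classes carry tyrosine hydroxylase (Th), the vasoactive intestinal peptide (Vip), calretinin (Calb2) or the serotonin receptor subunit Htr3a. Lhx6 is the transcription factor that marks interneurons born in the medial ganglionic eminence, among them the fast-spiking and the somatostatin cells. None of these genes is a textbook marker of astrocytes, whose ribosomes the precipitation was meant to collect.

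The genes lie apart in the genome. On mm10, in the coordinates of the RefSeq annotation of GRCm38.p6, Lhx6 spans chr2:36081950-36105992, Nos1 spans chr5:117866839-117958840, and Npy and Pthlh share a chromosome at chr6:49822710-49829507 and chr6:147252109-147264013. Th spans chr7:142892779-142899995, Calb2 spans chr8:110142526-110168212, Htr3a spans chr9:48899213-48911152 and Vip spans chr10:5639193-5647617. Pvalb spans chr15:78191112-78206400 and Sst spans chr16:23889573-23891342. All 10 are protein-coding.

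Promoter sequence from RefSeq (GRCm38.p6) was available for 8 of the genes in 11 windows. The stretch before the start site is shown for Pvalb and Pthlh, which differed most between the treatments. It is also shown for Sst, Npy and Th, which were all enriched in IP. Pvalb had 2 windows, and its stretch is from the one at the outer start of the locus. The cyclic AMP response element, with the letters TGACGTCA, reads alike on both strands. It is set in capitals and was found in the 250 bases before the start site in 2 of the 11 windows, those of Sst (first base 48 bases before the start site) and Th (45 bases before it). It occurs in 508 of 32851 windows of that length over all genes, or 1.55%. The windows of Nos1, Lhx6 and Vip, which were enriched in IP as well, did not hold the element. The stretches are on the minus strand except that of Npy, are written 5′ to 3′ in the direction of transcription, and come from chr16:23890875-23890904 (Sst), chr7:142900026-142900055 (Th), chr6:49822610-49822709 (Npy), chr15:78206401-78206500 (Pvalb) and chr6:147264014-147264113 (Pthlh).
Sst: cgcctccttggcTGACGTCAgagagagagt
Th: gacccagaggggcttTGACGTCAgcctggc
Npy: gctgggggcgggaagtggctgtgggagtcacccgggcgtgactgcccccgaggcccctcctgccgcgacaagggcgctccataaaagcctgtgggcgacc
Pvalb: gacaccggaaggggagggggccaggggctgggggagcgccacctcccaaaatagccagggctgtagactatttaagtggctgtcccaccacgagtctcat
Pthlh: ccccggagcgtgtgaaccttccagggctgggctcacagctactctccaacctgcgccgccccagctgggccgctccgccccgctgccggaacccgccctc

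The IP libraries were checked first against markers of the cells they should hold. All 15 astrocyte markers were higher in IP than in input in PMCA mice (median log2 fold 3.22) and in control mice (3.18), all 12 microglia markers were lower in both, and all 16 markers of striatal projection neurons were lower in both, with medians of -1.61 and -1.63. Markers of cholinergic interneurons, the other main class of striatal interneuron, went the other way, with 6 of 7 higher and 1 lower in IP in either treatment (medians 1.96 in PMCA mice and 2.19 in control mice). Of 10 oligodendrocyte markers, 7 were higher and 0 lower in IP in PMCA mice, and 4 higher and 1 lower in control mice (medians 0.45 and 0.39). Of 8 oligodendrocyte precursor markers, 5 were higher and 0 lower in PMCA mice, and 7 higher and 1 lower in control mice. Among all genes tested, 37.4% were higher and 39.3% lower in IP in PMCA mice, and 39.1% higher and 38.4% lower in control mice. The oligodendrocyte count in control mice lay near that share. The summed level of the oligodendrocyte markers was 6162 to 7297 CPM in PMCA IP and 5129 to 11343 CPM in control IP. By level, the IP libraries thus also held RNA of other cell types. In bulk samples such as these, fewer cells of a type and less RNA per cell cannot be told apart. Rpl22, the gene of the tag, averaged 8.11 ± 0.11 log2 CPM in PMCA IP and 9.80 ± 0.15 log2 CPM in control IP (SD, n = 4 each; log2 fold -1.69, adjusted p = 1.92e-05), and 6.72 ± 0.09 in PMCA input and 7.60 ± 0.14 in control input (-0.88, adjusted p = 0.000489). Every difference between the treatments below therefore comes with a difference in Rpl22, and the pump and the lower Rpl22 cannot be told apart. The mice PMCA 2 and control 2 stood apart in both fractions by low levels of several cortical neuron markers, and PMCA 4 did so in IP. In the fits, a log2 fold was tested with limma over all genes with enough reads, and passed where its adjusted p was below 0.05.

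**Figure D1:**
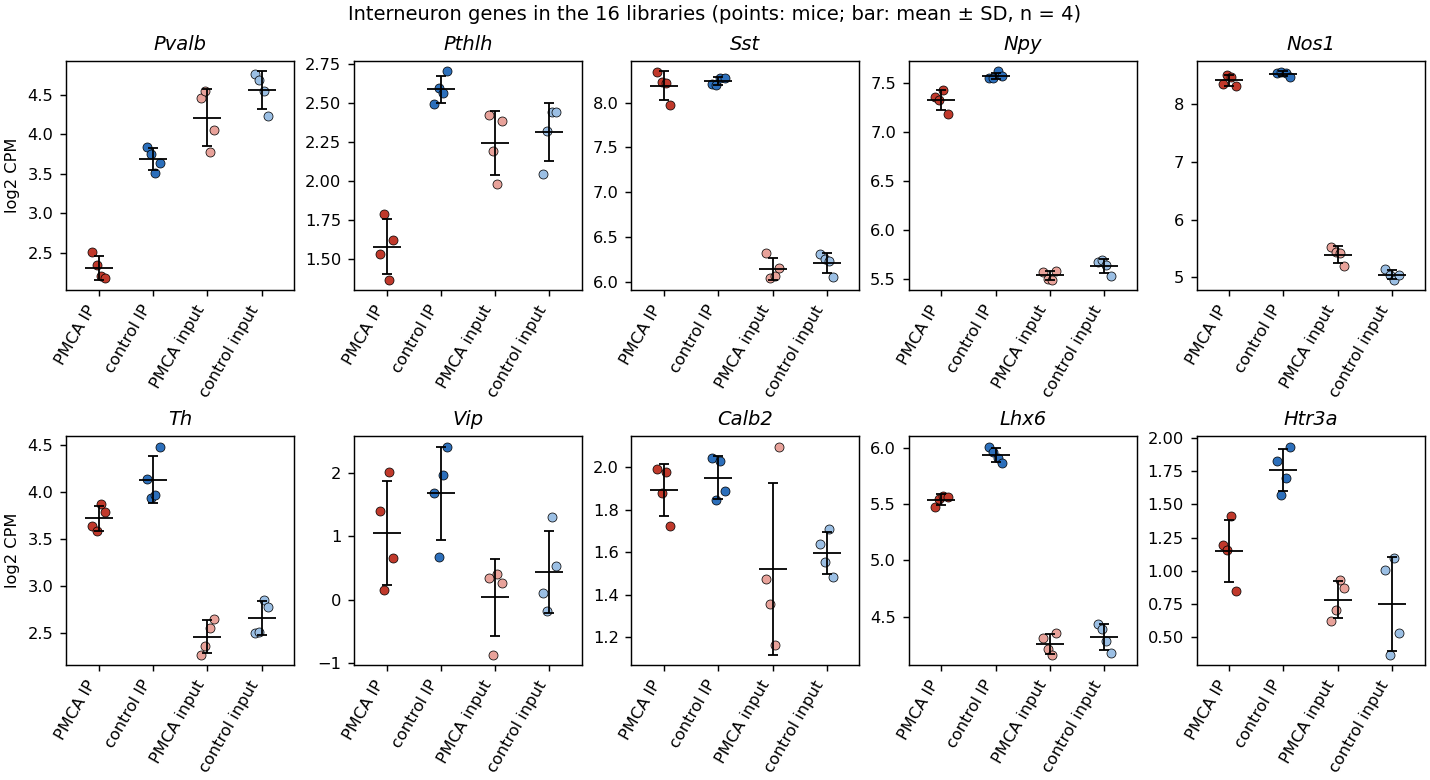
Level of each of the 10 genes, in log2 CPM, in PMCA IP, control IP, PMCA input and control input. Points are single mice and bars are the mean ± SD of 4 mice; each panel has its own axis. In Pvalb and Pthlh the 4 PMCA IP points lie below all others, and in Sst, Npy, Nos1, Th and Lhx6 all IP points lie above all input points.

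The comparison of PMCA IP with control IP asked how the RNA precipitated with the tagged ribosomes differed between the treatments. Of the 10 interneuron genes, 6 were lower in PMCA IP than in control IP, none was higher, and 4 did not pass. The lower genes were Pvalb, Pthlh, Lhx6, Htr3a, Th and Npy, led by Pvalb at 2.60-fold and Pthlh at 2.02-fold. The log2 fold of all 10 was below 0, with a median of -0.40, against a median of -0.01 over the 15748 genes tested. Among all genes tested, 10.1% were called lower and 9.54% higher.

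Pvalb codes for parvalbumin, the calcium-binding protein of fast-spiking interneurons. It had 2.51, 2.35, 2.20 and 2.18 log2 CPM in PMCA IP, against 3.84, 3.76, 3.51 and 3.63 in control IP. The groups did not overlap, and the lowest control library was 1 log2 unit above the highest PMCA library. The log2 fold was -1.38 (SE 0.11, adjusted p = 0.000289). In input it had 4.47, 4.55, 3.78 and 4.06 log2 CPM in PMCA mice, against 4.77, 4.69, 4.55 and 4.23 in control mice. These groups overlapped, and the log2 fold of -0.35 (SE 0.17) did not pass (adjusted p = 0.278).

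Pthlh codes for the parathyroid hormone-related peptide, which marks a class of interneurons in the mouse striatum that includes the parvalbumin cells. It had 1.53, 1.79, 1.37 and 1.62 log2 CPM in PMCA IP, against 2.49, 2.60, 2.57 and 2.70 in control IP. All PMCA libraries were below all control libraries, with a log2 fold of -1.01 (SE 0.12, adjusted p = 0.00186). In input it had 2.43, 2.19, 1.98 and 2.38 log2 CPM in PMCA mice, against 2.05, 2.32, 2.44 and 2.44 in control mice. The input groups overlapped and the log2 fold was -0.07 (95% interval -0.36 to 0.23). Both calls in IP, of Pvalb and of Pthlh, held under each alternative tried.

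Lhx6 was lower by a smaller amount but with little spread between mice. It had 5.47, 5.55, 5.57 and 5.57 log2 CPM in PMCA IP, against 6.01, 5.96, 5.91 and 5.86 in control IP. The groups did not overlap, the log2 fold was -0.40 (SE 0.06, adjusted p = 0.00332), and the call held under each alternative tried. In input it had 4.32, 4.21, 4.16 and 4.36 log2 CPM in PMCA mice, against 4.43, 4.39, 4.28 and 4.18 in control mice, groups that overlapped (log2 fold -0.06, 95% interval -0.22 to 0.10).

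Among the genes of the somatostatin class, Npy passed in IP and Sst and Nos1 did not. Npy had 7.35, 7.33, 7.42 and 7.18 log2 CPM in PMCA IP, against 7.55, 7.55, 7.61 and 7.56 in control IP. The groups did not overlap and the fold was 1.19, a log2 fold of -0.25 (SE 0.06, adjusted p = 0.0237). Sst had 8.34, 8.23, 8.22 and 7.97 log2 CPM in PMCA IP, against 8.21, 8.20, 8.27 and 8.28 in control IP. The PMCA libraries lay on both sides of the control libraries, and the log2 fold of -0.05 had a 95% interval of -0.23 to 0.13. Nos1 had 8.35, 8.51, 8.47 and 8.31 log2 CPM in PMCA IP, against 8.54, 8.56, 8.54 and 8.47 in control IP. Its groups overlapped and the log2 fold of -0.12 had a 95% interval of -0.26 to 0.03 (adjusted p = 0.227).

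The remaining genes mark other interneuron classes. Th codes for tyrosine hydroxylase, the rate-limiting enzyme of dopamine synthesis, and had 3.64, 3.59, 3.87 and 3.78 log2 CPM in PMCA IP, against 4.14, 3.94, 3.96 and 4.48 in control IP. The groups did not overlap, and the log2 fold was -0.41 (SE 0.13, adjusted p = 0.0447). Htr3a, a subunit of the serotonin-gated ion channel, had 1.19, 1.15, 1.41 and 0.85 log2 CPM in PMCA IP, against 1.82, 1.57, 1.70 and 1.93 in control IP. Again all PMCA libraries were below all control libraries, with a log2 fold of -0.61 (SE 0.15, adjusted p = 0.0215). Calb2, the calcium-binding protein calretinin, had 1.99, 1.88, 1.98 and 1.72 log2 CPM in PMCA IP, against 2.05, 1.84, 2.03 and 1.89 in control IP. Its groups overlapped almost fully (log2 fold -0.06, 95% interval -0.31 to 0.19). Vip, a peptide of cortical and striatal interneurons, had 1.39, 0.16, 2.02 and 0.65 log2 CPM in PMCA IP, against 1.68, 0.68, 1.97 and 2.40 in control IP. It varied more between mice than between the treatments, and its log2 fold of -0.63 had a 95% interval of -1.60 to 0.34.

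Some of the calls in IP changed with the setting. The call of Th was lost without the mean-variance trend (adjusted p = 0.0692), without a filter on low values (0.0906), and without any of the 7 mice other than PMCA 4 (0.0518 to 0.109, log2 folds -0.47 to -0.29). That of Npy was lost without control 2 (0.0591), control 3 (0.0642) or PMCA 2 (0.0607), with log2 folds of -0.25, -0.23 and -0.25. Without both PMCA 2 and control 2, the count of lower genes was 3, and Npy (0.132), Th (0.120) and Htr3a (0.0836) did not pass. Animal numbers in the labels fall in a lower and a higher set. By source name the higher set held PMCA 3 and PMCA 4 and no control mouse. With that set as a block, the fold thus compared PMCA 1 and PMCA 2 with the control mice. The count was also 3, with Npy at an adjusted p of 0.0980, Th at 0.0551 and Htr3a at 0.0852.

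**Figure D2:**
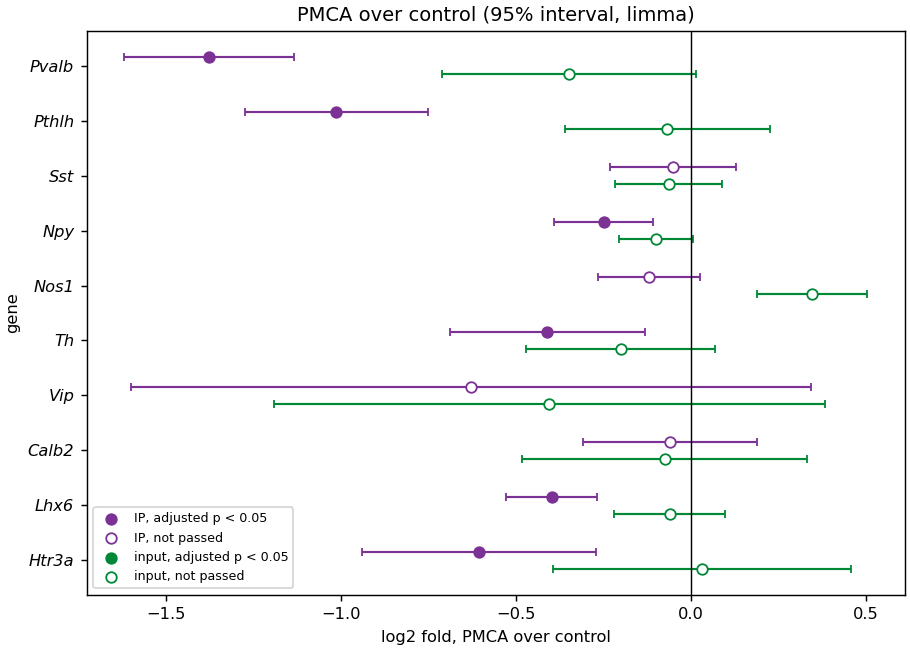
Log2 fold of PMCA over control mice for each of the 10 genes, in IP and in input, with the 95% interval of the limma fit (4 mice a group). Filled points passed at an adjusted p below 0.05: 6 genes in IP, from Npy at -0.25 to Pvalb at -1.38, and no gene in input.

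In the lysate the same comparison gave a different picture. None of the 10 genes passed in input by limma, where 0.0797% of 16306 genes were called lower and 0.362% higher, and the median log2 fold of the 10 was -0.07. With voom weights 0 passed as well. By limma 1 of the 10 genes, Nos1, had an unadjusted p below 0.05, as had 3152 of all 16306 genes tested. Nos1 had 5.53, 5.44, 5.42 and 5.19 log2 CPM in PMCA input, against 5.15, 5.04, 4.96 and 5.05 in control input. The groups did not overlap, with PMCA mice higher by a log2 fold of 0.35 (SE 0.07), which missed the threshold (adjusted p = 0.0669). It passed when total reads were used without the authors' scaling factor (0.0493), with the animal-number set by title as a block (0.00715), without control 4 (0.0228) and without PMCA 4 (0.0247).

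The other genes overlapped between the treatments in input. Sst had 6.32, 6.04, 6.06 and 6.16 log2 CPM in PMCA input, against 6.31, 6.25, 6.23 and 6.05 in control input. Npy had 5.57, 5.50, 5.49 and 5.57 log2 CPM in PMCA input, against 5.67, 5.69, 5.64 and 5.53 in control input. The groups overlapped for both peptides, with log2 folds of -0.06 (95% interval -0.22 to 0.09) for Sst and -0.10 (-0.20 to 0.01) for Npy. Th had 2.27, 2.35, 2.56 and 2.65 log2 CPM in PMCA input, against 2.50, 2.50, 2.85 and 2.78 in control input (log2 fold -0.20, 95% interval -0.47 to 0.07). Htr3a had 0.63, 0.71, 0.93 and 0.87 log2 CPM in PMCA input, against 1.01, 0.37, 1.10 and 0.53 in control input (log2 fold 0.03, 95% interval -0.39 to 0.46). Calb2 had 1.47, 1.36, 1.16 and 2.10 log2 CPM in PMCA input, against 1.64, 1.55, 1.71 and 1.48 in control input, and the PMCA libraries spread to both sides of the control libraries.

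Whether the difference between the treatments was itself different in IP and in input was tested over all 16 libraries. It was for 3 of the 10 genes, all lower in IP relative to input: Pvalb (-1.03, adjusted p = 0.0252), Pthlh (-0.95, adjusted p = 0.0172) and Nos1 (-0.47, adjusted p = 0.0233). Over 16673 genes, 1.06% were called lower and 0.972% higher. For Nos1 this difference combined the higher level in PMCA input with a lower mean in PMCA IP. Lhx6 lay just outside (-0.34, adjusted p = 0.0619) and inside with the animal as a block (adjusted p = 0.0489). Over all alternatives its adjusted p by limma ran from 0.0454 to 0.312, so the block was not the only setting in which it passed. Sst (0.01) and Calb2 (0.02) were near 0, with 95% intervals of -0.22 to 0.25 for Sst and -0.45 to 0.49 for Calb2.

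These 3 calls were lost when some of the mice were left out. That of Pvalb was lost without control 1 (0.0502), control 2 (0.0876), control 3 (0.0552), control 4 (0.0521), PMCA 1 (0.0763) or PMCA 2 (0.0907), and that of Pthlh without control 2 (0.0730) or PMCA 1 (0.0763). That of Nos1 was lost without control 2 (0.0951), control 3 (0.0700), PMCA 1 (0.0965), PMCA 2 (0.0700) or PMCA 3 (0.0728), so the count of lower genes was 0 without control 2 or PMCA 1 and 1 without control 3 or PMCA 2. Without both PMCA 2 and control 2 the count was 0. When 1 mouse was left out, the log2 folds ran from -1.14 to -0.93 for Pvalb, -1.03 to -0.87 for Pthlh and -0.50 to -0.40 for Nos1.

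The comparison of IP with input asked how far each gene's RNA was enriched in the precipitate of tagged ribosomes, whichever cells it came from. In PMCA mice, 6 of the 10 genes were higher in IP (Nos1, Sst, Npy, Lhx6, Th and Vip), 2 were lower (Pvalb and Pthlh), and Calb2 and Htr3a did not pass. In control mice 9 were higher and only Pvalb was lower. Over all genes tested, 37.4% of 16345 were higher and 39.3% lower in PMCA mice, and 39.1% of 16072 were higher and 38.4% lower in control mice. The median log2 fold of the 10 genes was 1.14 in PMCA mice and 1.36 in control mice, against medians over all genes of -0.04 and 0.00. With total reads and no scaling factor, the median over all genes shifted to -0.35 in PMCA mice and -0.28 in control mice.

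Nos1 was the most enriched of the 10. In PMCA mice it was 8.08-fold higher in IP (log2 fold 3.01, SE 0.08, adjusted p = 2.71e-10) and in control mice 11.2-fold higher (3.48, SE 0.05, adjusted p = 5.52e-11). The log2 difference between IP and input was 2.83, 3.06, 3.05 and 3.12 in the PMCA mice, against 3.39, 3.52, 3.57 and 3.43 in the control mice. All 4 PMCA mice were below all 4 control mice. In control mice Nos1 ranked 26 of 16072 genes by log2 fold, and its rank in PMCA mice was 151 of 16345.

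Sst and Npy, the peptides that share cells with Nos1, were enriched by about the same amount in both treatments. Sst was 4.13-fold higher in IP in PMCA mice and 4.09-fold higher in control mice (log2 folds 2.05 and 2.03, SE 0.09 and 0.06), and its difference ran between 1.81 and 2.23 log2 units over the 8 mice. Npy was 3.45-fold higher in IP in PMCA mice and 3.83-fold higher in control mice (1.79 and 1.94, SE 0.06 and 0.05). For Sst, Npy and Nos1, every IP library lay above every input library.

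Lhx6 and Th were enriched less. Lhx6 was 2.42-fold higher in IP in PMCA mice and 3.06-fold higher in control mice, and its difference was 1.16, 1.33, 1.41 and 1.21 log2 units in the PMCA mice, against 1.58, 1.57, 1.63 and 1.68 in the control mice. The 2 sets of mice did not overlap. Th was 2.40-fold higher in IP in PMCA mice and 2.78-fold higher in control mice. Its difference was above 0 in all 8 mice, between 1.12 and 1.70 log2 units, and the treatments overlapped.

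Pvalb was depleted in IP, 3.75-fold in PMCA mice and 1.83-fold in control mice. Its difference between IP and input was -1.96, -2.20, -1.58 and -1.88 log2 units in the PMCA mice, against -0.93, -0.94, -1.03 and -0.60 in the control mice. It was thus below 0 in 8 of 8 mice, and all PMCA mice lay below all control mice. Pthlh split by treatment, with differences of -0.89, -0.41, -0.61 and -0.76 log2 units in the PMCA mice, against 0.45, 0.28, 0.13 and 0.26 in the control mice. It was 1.59-fold lower in IP in PMCA mice (adjusted p = 0.00125) and 1.21-fold higher in control mice (adjusted p = 0.0451). The call in control mice was lost when any 1 control mouse was left out (adjusted p between 0.0710 and 0.127), and with total reads that log2 fold was near 0 (0.0025).

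Vip, Calb2 and Htr3a mark further interneuron classes. Vip was higher in IP in 8 of 8 mice, by 0.38 to 1.87 log2 units, with adjusted p = 0.0449 in PMCA mice and 0.0131 in control mice. The call was lost in PMCA mice without the mean-variance trend (0.0710), with voom weights (0.0559), with total reads (0.137), without a filter on low values (0.101), and without PMCA 1 (0.120) or PMCA 3 (0.114), and in control mice without control 1 (0.0623) or control 4 (0.0540). Htr3a was higher in IP by a log2 fold of 0.37 in PMCA mice (adjusted p = 0.0554) and 1.004 in control mice (adjusted p = 0.00053), and Calb2 by 0.37 (adjusted p = 0.0966) and 0.36 (adjusted p = 0.0151). In PMCA 4 both Calb2 (-0.37) and Htr3a (-0.03) were lower in IP, unlike in the other 7 mice. Without PMCA 4 both passed in PMCA mice, Calb2 at 0.62 (adjusted p = 0.00278) and Htr3a at 0.50 (adjusted p = 0.0265), and the call of Calb2 in control mice was lost without control 1 (0.0596) and with total reads (0.534).

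**Figure D3:**
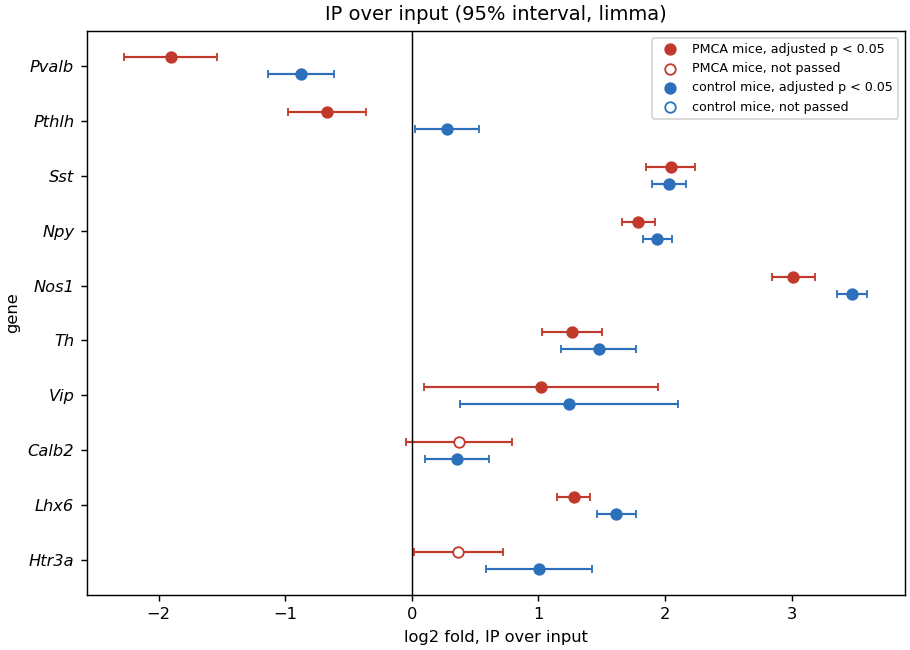
Log2 fold of IP over input for each of the 10 genes, in PMCA mice and in control mice, with the 95% interval of the limma fit (4 mice a group). Filled points passed at an adjusted p below 0.05. Nos1 lies farthest to the right (3.01 in PMCA mice, 3.48 in control mice), Pvalb farthest to the left (-1.91 and -0.87), and Pthlh lies on opposite sides of 0 (-0.67 and 0.28).

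Other genes known from the same interneuron classes were read from lists by class. Of 10 genes of fast-spiking cells, 7 were lower in PMCA IP than in control IP and none was higher (median log2 fold -0.68, against -0.01 over all genes). The 4 with the largest difference were Nefh, the heavy neurofilament protein (-0.86), Cox6a2, a subunit of cytochrome c oxidase (-0.85), Kit, a receptor tyrosine kinase (-0.85), and Hapln4, a link protein of perineuronal nets (-0.75). Kit had 5.17, 5.35, 5.36 and 5.45 log2 CPM in PMCA IP, against 6.25, 6.20, 6.02 and 6.27 in control IP, and Nefh had 4.43, 4.48, 4.65 and 4.77 in PMCA IP, against 5.56, 5.40, 5.45 and 5.34 in control IP. Neither gene overlapped between the treatments. In input none of the 10 passed. For 3 of them, Kit (-0.91), Nefh (-0.74) and Erbb4, the neuregulin receptor (-0.47), the treatment difference was lower in IP than in input with an adjusted p below 0.05.

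The list of fast-spiking genes did not move as Pvalb did between IP and input. In PMCA mice 3 of its 10 genes were higher in IP and 4 lower, and in control mice 6 were higher and 3 lower. Kit was 1.06 log2 units higher in IP in control mice, and its log2 fold of 0.15 in PMCA mice did not pass. Syt2, a synaptotagmin of fast-spiking terminals, was lower in IP in both treatments (-1.35 in PMCA mice and -0.74 in control mice), as Pvalb was.

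Of 9 further genes known from somatostatin, NPY or nitric oxide synthase neurons, 2 were lower in PMCA IP than in control IP and none was higher (median -0.33). They were Sstr1, a somatostatin receptor (-0.47), and Chodl, a membrane lectin that marks the cells with all 3 products in mice (-0.40). Between IP and input, 5 of the 9 were higher in IP and 1 was lower in either treatment. Tacr1, the receptor of substance P, was higher by 2.61 log2 units in PMCA mice and 2.89 in control mice, and Chodl by 1.74 and 2.10. Crhbp, which binds the corticotropin-releasing hormone, was higher by 1.54 log2 units in PMCA mice and 1.67 in control mice. In input, none of the 9 differed between the treatments past the threshold.

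Th was read beside genes of dopamine neurons, whose axons fill the striatum. Slc6a3, the dopamine transporter of these neurons, had 2 to 9 reads in the PMCA IP libraries, 0 to 11 in control IP, 7 to 18 in PMCA input and 9 to 12 in control input. Dbh, Slc6a2, Pitx3 and En1, which mark noradrenaline or dopamine neurons, were at 0 reads in at least 1 library each. Slc18a2, which loads monoamines into vesicles, was lower in IP than in input in PMCA mice (log2 fold -0.36), and its value of -0.21 in control mice did not pass. Ddc, the enzyme that follows Th in the pathway, was lower in IP in both treatments (-0.63 in PMCA mice and -0.46 in control mice). Aldh1a1, a retinaldehyde dehydrogenase, was higher in IP, by 2.81 log2 units in PMCA mice and 2.84 in control mice. Th thus went the opposite way to Ddc and the same way as Aldh1a1. Of the 4 genes of this list tested in PMCA against control IP, Aldh1a1 was lower (-0.50). It was also lower in input (-0.47, adjusted p = 0.00713).

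The list of genes of Vip, calretinin and Htr3a interneurons had 11 of its 12 genes tested. In PMCA IP, 3 were lower than in control IP, namely Reln, a secreted glycoprotein (-0.51), Adarb2, an RNA-binding protein (-0.50), and Cnr1, the cannabinoid receptor (-0.36), and 1 was higher, the transcription factor Nr2f2 (0.39). Between IP and input, 3 were higher and 5 lower in either treatment. Cnr1 was lower in IP by 1.70 log2 units in PMCA mice and 1.33 in control mice, whereas Ndnf, a secreted neurotrophic factor, was higher by 1.98 in PMCA mice and 2.56 in control mice.

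Of 17 transcription factors of ganglionic eminence interneurons, 3 were lower in PMCA IP than in control IP and 1 was higher, with a median of -0.02 that lay next to the all-gene median. The lower ones were Npas1 (-0.51), Lhx8 (-0.42) and Zic1 (-0.39), and the higher one was Prdm16 (0.61). Between IP and input 11 were higher and 4 lower in either treatment. Sox6, which acts after Lhx6 in cortical interneurons of the mouse, was higher in IP by 2.32 log2 units in PMCA mice and 2.41 in control mice, and Lhx8 by 0.996 and 1.38. Dlx6, an early factor of GABAergic neurons, was lower by 1.73 log2 units in PMCA mice and 1.71 in control mice.

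Genes of GABA synthesis and release, which all these cells and the projection neurons share, were also read. Gad1, which makes GABA, was lower in PMCA IP than in control IP by a log2 fold of -0.65, and Slc32a1, which loads it into vesicles, by -0.63. Gad2 (-0.44) did not pass (adjusted p = 0.0682). For Gad1 and Slc32a1 the treatment difference was lower in IP than in input (-0.60 and -0.58). In IP against input, Gad1, Gad2 and Slc32a1 were lower in both treatments, from -0.24 for Gad1 in control mice to -1.28 for Slc32a1 in PMCA mice. Nos1, Sst and Npy thus went the opposite way to these 3 genes between the fractions.

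Receptors and targets of the interneuron products form the receiving side. Of 16 such genes, 4 were lower in PMCA IP than in control IP and none was higher: Npy5r, a receptor of neuropeptide Y (-0.81), Gucy1b3, a subunit of the guanylate cyclase that nitric oxide activates (-0.51), Sstr1 (-0.47), and Pde5a, which breaks down cyclic GMP (-0.39). Pth1r, the receptor of the parathyroid hormone-related peptide, had a log2 fold of 0.07 and did not pass. Between IP and input 5 were higher and 9 lower in PMCA mice, and 6 were higher and 9 lower in control mice. Adcyap1r1, a receptor of the peptide family of Vip, was higher in IP by 2.61 log2 units in PMCA mice and 2.55 in control mice, and Pth1r by 1.16 and 0.93. Npy1r was lower in IP by 1.97 log2 units in PMCA mice and 1.82 in control mice.

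**Figure D4:**
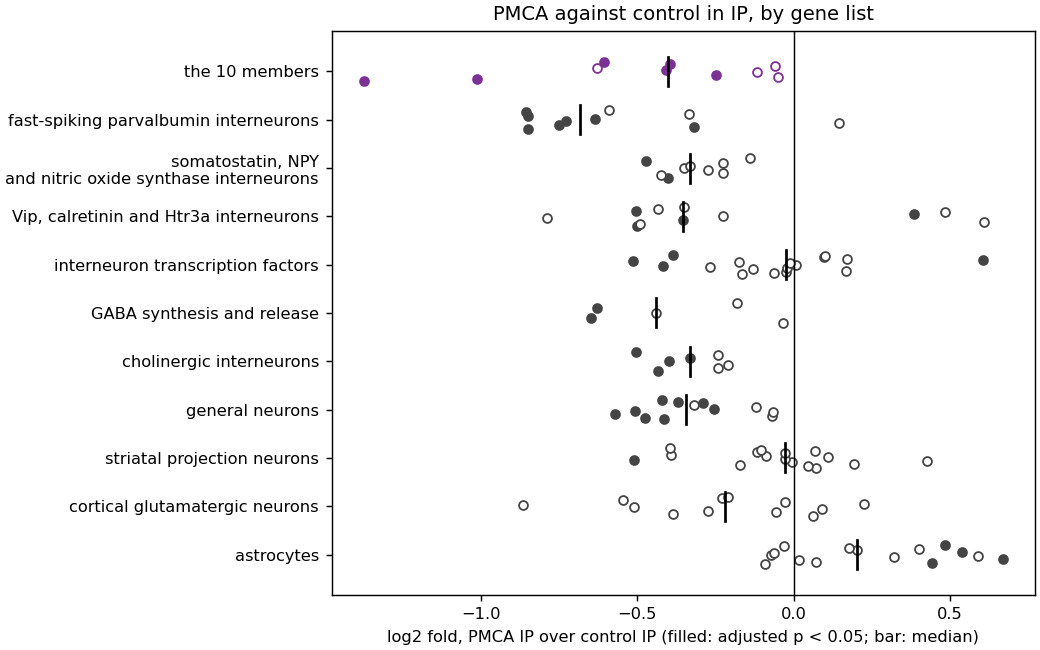
Log2 fold of PMCA IP over control IP for the 10 interneuron genes (top row) and for the genes of other lists. Each point is a gene, filled where its adjusted p was below 0.05, and the bar is the median of the list. The fast-spiking list has the lowest median (-0.68), the projection neuron and transcription factor lists lie at -0.03 and -0.02, and the astrocyte list lies at 0.20.

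The lower interneuron genes in PMCA IP came with lower levels of other neuron genes and higher levels of some genes of astrocytes, other glia and vessel cells. Of 12 genes of neurons in general, 8 were lower in PMCA IP (median log2 fold -0.34), and their summed level was 2968 to 3528 CPM in PMCA IP, against 3604 to 4594 CPM in control IP. Of 7 cholinergic genes, 4 were lower (median -0.33), among them Slc5a7, the choline transporter (-0.50), and Chat, which makes acetylcholine (-0.44), and their summed level was 490 to 561 CPM in PMCA IP, against 603 to 716 CPM in control IP. Of 15 astrocyte genes, 4 were higher (median 0.20), and their sum was 50118 to 59518 CPM in PMCA IP, against 38024 to 49981 CPM in control IP. None of these 3 sums overlapped between the treatments, and no gene of these lists was at 0. Slc1a2 alone was the largest part of the astrocyte sum (mean 14.94 log2 CPM in PMCA IP, 14.53 in control IP), so that sum largely follows 1 gene. Of 16 projection neuron genes, 1 was lower and none was higher (median -0.03), and their sum overlapped, at 3233 to 5257 CPM in PMCA IP and 3038 to 5383 CPM in control IP. The top of each range was a single library, PMCA 4 and control 1. The other libraries, at 3233 to 3811 CPM in PMCA IP and 3038 to 4155 CPM in control IP, overlapped as well. PMCA 4 also had the highest PMCA IP sum of the general neuron genes and of the microglia genes that follow. Of 12 microglia genes, 5 were higher (median 0.85), among them Itgam (1.58) and Csf1r (1.16), with a sum of 86.0 to 138.5 CPM in PMCA IP and 67.3 to 86.7 CPM in control IP. Of 10 genes of vessel cells, 3 were higher and 2 lower (median 0.47), with a sum of 97.4 to 108.4 CPM in PMCA IP, against 80.1 to 89.0 CPM in control IP. Of 8 genes of oligodendrocyte precursors, 1, Cspg5, was higher (0.44), and the median log2 fold was 0.04. Their sum was 1453 to 1656 CPM in PMCA IP, against 1157 to 1421 CPM in control IP. The sums of vessel and precursor genes did not overlap, and none of these genes was at 0. Pdgfrb alone was the largest part of the vessel sum (mean 6.34 log2 CPM in PMCA IP, 5.92 in control IP). Cspg5 was the largest part of the precursor sum (mean 10.05 log2 CPM in PMCA IP, 9.62 in control IP). Each of these 2 sums thus largely follows 1 gene. The part of these differences in the lower interneuron genes was not tested.

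Vip varied between mice along with several, but not all, markers of cortical glutamatergic neurons. In IP, Slc17a7, the vesicular glutamate transporter of cortical neurons, had 6.26, 5.08, 6.38 and 4.17 log2 CPM in the PMCA mice, against 6.40, 3.80, 6.10 and 6.49 in the control mice. Vip was likewise lowest in PMCA 2 and PMCA 4 among the PMCA mice and in control 2 among the control mice. In input, Slc17a7 had 5.95, 4.51, 6.22 and 5.95 log2 CPM in the PMCA mice, against 6.28, 4.49, 6.74 and 6.26 in the control mice, and Vip had 0.34, -0.87, 0.41 and 0.27, against 0.11, -0.18, 1.31 and 0.53. The mice PMCA 2 and control 2 were again lowest in both genes. Tbr1, Neurod6 and Cck followed the same order of low mice. The summed level of the 12 cortical genes was 400 to 602 CPM in PMCA IP and 446 to 513 CPM in control IP. In input it was 156 to 228 CPM in PMCA mice and 154 to 280 CPM in control mice, and no gene was at 0. Rorb alone was the largest part of the sums in IP (mean 8.60 log2 CPM in PMCA IP, 8.37 in control IP), so those sums largely follow 1 gene. Rorb and Fezf2, transcription factors of this list, were higher in IP than in input in both treatments, and Rorb did not share the order of low mice. Other genes of the list departed from it in IP. Lamp5 (4.51 log2 CPM) and Slc17a6 (0.36) were highest of the PMCA mice in PMCA 4, and Fezf2 (3.24) was highest of the control mice in control 2. None of the 12 cortical genes differed between PMCA and control mice past the threshold in either fraction. Since the mice fall into low and high sets, no correlation over them is given, and the part of cortical RNA in the level of Vip was not tested. In IP, Pvalb was 2.35 log2 CPM in PMCA 2 and 3.76 in control 2, each second highest of its group, and 2.18 in PMCA 4, the lowest of the PMCA mice.

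**Figure D5:**
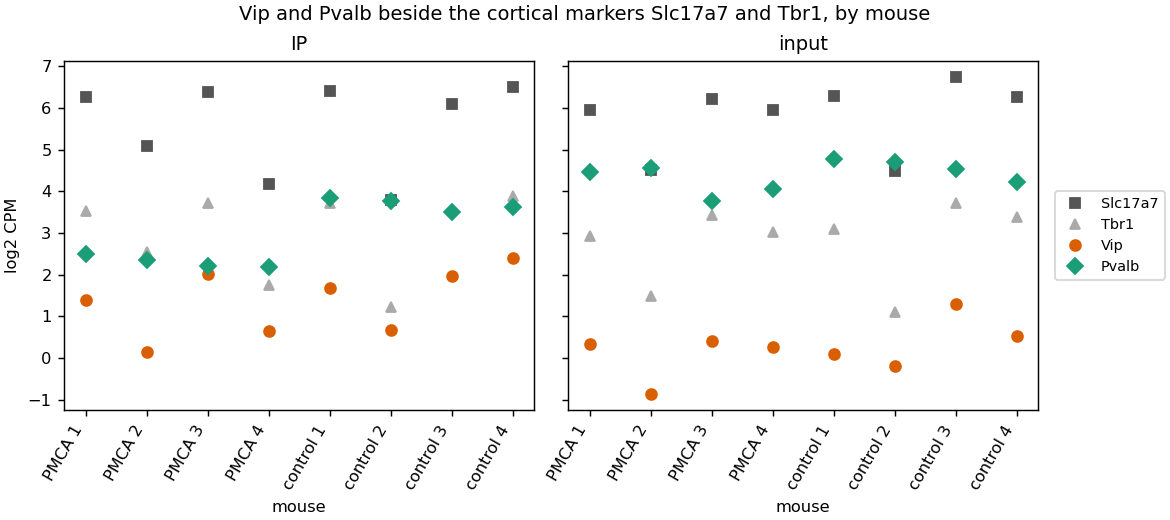
Levels of Vip and Pvalb beside the cortical markers Slc17a7 and Tbr1, in log2 CPM, in each of the 8 mice, for IP (left) and input (right). The mice PMCA 2 and control 2 are low in Slc17a7, Tbr1 and Vip in both fractions and PMCA 4 in IP. Pvalb is not low in PMCA 2 or control 2, and in IP it is lowest of the PMCA mice in PMCA 4. Heights of different genes are not comparable, since no gene length enters.

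The genes whose levels ran most like those of Pvalb, Nos1, Sst and Th were found by Pearson correlation of log2 CPM over the 16 libraries with 16672 other genes, as a description, since the libraries share 2 fractions and 2 treatments. Nos1 ran most like Fat1, an atypical cadherin (r = 0.998), Egfr, the epidermal growth factor receptor (0.998), and Hhip, a hedgehog-binding protein (0.997). Like Nos1, these 3 were higher in IP in both treatments, with Egfr higher by 2.91 log2 units in PMCA mice and 3.26 in control mice. Sst ran most like Gcat, an enzyme of threonine breakdown (0.997), Lrrc75b (0.996) and Cxcl14, a chemokine (0.996). Cxcl14 was higher in IP by 2.52 log2 units in PMCA mice and 2.36 in control mice. Among the genes that ran most like Th were the tubulin gene Tubb2a (0.982) and Kpna6, an importin (0.981). Pvalb ran most like Polr2e, a subunit of RNA polymerases (0.987), Myl12b, a myosin light chain (0.979), and Otub1, a deubiquitinase (0.976). These 3 shared its order of groups but with far smaller folds, and Polr2e differed by -0.36 log2 units between PMCA IP and control IP.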

How the data were processed

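Per the labels' protocols, an RNeasy kit was used to extract total RNA, which was made into stranded libraries after ribosomal RNA removal. STAR, HTSeq, edgeR and limma and the build mm10 are named in the submitters' processing notes, without versions. Neither the annotation nor the strand setting of the counting is stated there, so reads of overlapping genes may be shared. The authors deposited 1 file per library with log2 CPM of 20730 genes. Undoing the log2 scale and the prior count (0.25 on average) gave whole reads for 100% of values within 0.001, and from these the totals and the authors' scaling factors (0.89 to 1.12), which were kept.

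The deposited log2 values were tested with limma 3.58.1 in R 4.3.3, a two-sided moderated linear model whose prior variance follows the mean level, with p-values adjusted by Benjamini and Hochberg over every gene tested and a threshold of 0.05. Genes with at least 10 reads' worth in at least 4 libraries of a comparison entered. The script was tested on simulated data. The 10 genes, the lists and the naming rule were chosen with earlier results of these data known. Named are all 10 genes, up to 4 genes per list with the largest fold past the threshold, genes of high level that did not pass, Rpl22, and the 3 genes most like Pvalb, Nos1, Sst and Th, apart from genes that are not reported here. Pth1r, Cck, Dbh, Slc6a2, Pitx3 and En1 were added after their values were seen. Replicates are mice, numbered in accession order. IP and input of 1 mouse share an animal: over 16673 genes, deviations from the group means correlated with r of 0.11 to 0.33 within a mouse (8 pairs) and -0.20 to 0.08 between mice (24 pairs). Alternatives were the animal as a block, voom weights, total reads, other prior counts and filters, the animal-number set, and leaving out each mouse. The title and the source name of control 4 give different animal numbers, and both placements were tried.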

Additional observations from a re-analysis of the deposited data

Results flagged for a closer look

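In PMCA input, the Vip level of mouse PMCA 2, at -0.87 log2 CPM, lay far from the other 3 mice (0.27 to 0.41). It was the 1 outlying library in 40 groups of 4 mice, and chance marks about 1 in 20. The difference between the treatments differed between IP and input, by an interaction test with limma, for Pvalb (-1.03), Pthlh (-0.95) and Nos1 (-0.47). The explanations of these results were not tested.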

How the results depend on the processing

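Of 740 values of a gene under an alternative setting, 659 kept their direction and their side of the threshold, 51 kept the direction but no longer passed, 9 newly passed and 21 changed sign, each in a gene that had not passed. The animal as a replicate block changed no call other than that of Lhx6 in the difference between the fractions (-0.34, adjusted p = 0.0489). The count of genes lower in PMCA IP was 3 with the animal-number set by source name as a block and 3 without the mice control 2 and PMCA 2, a setting chosen after seeing the data. By source name the higher set held no control mouse, so that fold compared PMCA 1 and PMCA 2 with the control mice. The count higher in PMCA input was 1, Nos1, with total reads, with the number set by title, and at most 1 (lowest 0) when a mouse was left out. The count lower in the difference between the fractions was 0 without both mice, and 0 to 3 when a mouse was left out. Signs turned for Sst in PMCA IP by source name (0.0453) and when a mouse was left out (-0.0999 to 0.0245). In PMCA input they turned for Htr3a by source name (-0.0849), without both mice (-0.0695) and when a mouse was left out (-0.0948 to 0.147), and for Pthlh (-0.155 to 0.0227) and Calb2 (-0.267 to 0.0457) when a mouse was left out. In the difference between the fractions they turned for Sst with total reads (-0.0167), without both mice (-0.0600) and when a mouse was left out (-0.0328 to 0.0913), and for Calb2 with total reads (-0.0136), without both mice (-0.0556) and when a mouse was left out (-0.132 to 0.265). The cause was not tested. Vip had as few as 24 reads in a library and Htr3a 47, and how far depth limits their values was not tested.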
